A study of Homo sapiens with 12 samples.

Results

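Zinc finger genes of chromosome 19 were followed in HCT116, an established human colorectal cancer cell line, through a time course of hypoxia. The genes were taken by name and place. A gene name had to be ZNF followed by a number, with at most 1 closing letter, and its assembled locus had to lie on chromosome 19. Only transcripts that matched an annotated transcript (class code =) or shared at least 1 splice junction with one (class code j) were counted. Abundance is given as FPKM, the number of fragments scaled to transcript length and to all mapped fragments of the library. It was summed over these transcripts for each gene name, and the members were selected on this sum, which had to be above 0.5 in at least 3 of the 12 libraries. The rule matched 261 names, of which 16 were at 0 in all 12 libraries and 154 were kept, out of 16678 gene names that passed the same filter in the whole table. Level was therefore part of the choice, and the number of zinc finger genes expressed is not a finding. Cells held in 21% oxygen stood for 0 h, and cells held in 1% oxygen for 1 h, 2 h or 24 h made up the other groups, with 3 libraries of poly(A) RNA in each. Hypoxia began 24 h after plating. The sources used here do not say whether the 0 h cells were harvested at the same age as the 24 h cells, so at 24 h the effect of low oxygen cannot be told apart from that of a day of growth. All 12 libraries come from 1 cell line. The study calls its replicates biological, the labels do not say how they were kept apart, and a p-value measures the spread between these libraries.

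Most proteins of this family carry tandem zinc fingers of the C2H2 kind, each of which contacts a few bases of DNA. In many of them a KRAB domain at the amino end recruits TRIM28, which in turn brings histone methyltransferases and heterochromatin proteins to the bound site. Transposable elements are their best known targets, and the genes themselves arose by tandem duplication, so that they stand in clusters with many near copies. Reads can be shared between near copies when abundance is estimated. Of the 154 members, 79 lay in an assembled locus, taken by its identifier, that also held another gene name. Values for close relatives are uncertain for this reason.

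The promoters below are those of the 2 members that rose at 24 h (ZNF160 and ZNF699) and of 3 that fell and lie near the end of the long arm (ZNF551, ZNF324B and ZNF324), shown as examples of called members, among them a pair of near copies. Each runs from before to just after the RefSeq start of the gene over 300 bases, 5′ to 3′ on the strand of the gene, in build GRCh38.p14. They lie at chr19:53103373-53103672 (ZNF160, minus strand), chr19:9309789-9310088 (ZNF699, minus strand), chr19:57681727-57682026 (ZNF551, plus strand), chr19:58451372-58451671 (ZNF324B, plus strand) and chr19:58466830-58467129 (ZNF324, plus strand). Capitals mark ACGTG or GCGTG on either strand, the core letters of the hypoxia response element.
ZNF160: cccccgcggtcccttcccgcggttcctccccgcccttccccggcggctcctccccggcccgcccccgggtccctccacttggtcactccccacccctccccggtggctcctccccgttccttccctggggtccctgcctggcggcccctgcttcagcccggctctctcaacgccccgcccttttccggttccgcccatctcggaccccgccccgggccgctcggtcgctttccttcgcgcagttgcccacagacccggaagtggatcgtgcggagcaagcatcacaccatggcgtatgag
ZNF699: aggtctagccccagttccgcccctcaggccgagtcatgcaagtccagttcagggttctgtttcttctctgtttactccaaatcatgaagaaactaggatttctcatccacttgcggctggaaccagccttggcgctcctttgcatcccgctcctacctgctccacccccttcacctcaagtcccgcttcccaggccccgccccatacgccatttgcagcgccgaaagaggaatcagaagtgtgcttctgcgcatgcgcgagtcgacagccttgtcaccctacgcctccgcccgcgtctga
ZNF551: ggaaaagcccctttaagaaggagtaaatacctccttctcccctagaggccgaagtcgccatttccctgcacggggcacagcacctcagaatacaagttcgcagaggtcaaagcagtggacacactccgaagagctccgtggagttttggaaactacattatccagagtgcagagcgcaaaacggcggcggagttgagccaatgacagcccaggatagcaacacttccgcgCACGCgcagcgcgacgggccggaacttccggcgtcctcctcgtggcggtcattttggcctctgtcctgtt
ZNF324B: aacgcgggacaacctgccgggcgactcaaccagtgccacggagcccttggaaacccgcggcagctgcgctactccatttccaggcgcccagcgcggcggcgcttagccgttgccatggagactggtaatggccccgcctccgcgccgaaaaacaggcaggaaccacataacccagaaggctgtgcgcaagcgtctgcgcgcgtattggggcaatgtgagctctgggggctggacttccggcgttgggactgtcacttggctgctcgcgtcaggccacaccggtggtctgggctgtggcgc
ZNF324: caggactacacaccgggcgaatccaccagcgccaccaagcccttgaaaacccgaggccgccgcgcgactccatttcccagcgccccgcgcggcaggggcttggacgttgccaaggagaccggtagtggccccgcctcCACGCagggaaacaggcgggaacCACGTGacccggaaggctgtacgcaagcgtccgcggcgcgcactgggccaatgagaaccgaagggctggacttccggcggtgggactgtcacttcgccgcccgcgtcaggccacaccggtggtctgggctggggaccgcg
Neither promoter of the members that rose held the core letters. Of the others, ZNF324 held 3 matches, of which 2 overlap because CACGTG reads as a core on both strands, while ZNF551 held 1 and ZNF324B none. Of the called lower members not printed, ZNF587B and ZNF296 held 2 each and ZNF100 and ZNF780B none, so that 4 of the 7 with a promoter in the table held a match. A promoter was found for 134 of the 154 members, and 57.5% of these held at least 1 match, against 48.4% of all 35116 promoters of the table. The median GC content was 60.8% for the member promoters and 58.7% for all promoters. ZNF324 and ZNF324B are neighbouring copies, and their promoters were identical at 248 of 305 aligned positions (81.3%).

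The members were expressed at low levels. The median over the members of the mean FPKM was 2.76, with quartiles of 1.52 and 5.49, against 8.66 over all gene names, 4.51 over the 217 ZNF-numbered genes of other chromosomes and 9.77 over the 922 other genes of chromosome 19. Of the 154 members, 134 were above 0.5 FPKM in all 12 libraries. A mean above 10 FPKM was found for 14 members and a mean below 1 FPKM for 20. At the threshold the third highest of the 12 values decided, and it was 0.502 for ZNF155, 0.505 for ZNF493, 0.521 for ZNF223 and 0.529 for ZNF846, all just inside. It was 0.499 for ZNF547, 0.485 for ZNF575, 0.484 for ZNF20 and 0.449 for ZNF550, all just outside. For 5 members (ZNF155, ZNF223, ZNF419, ZNF493 and ZNF846) no library of 0 h, or none of 24 h, was above 0.5 FPKM, and none of the 5 was called at 24 h with the 2-fold limit. Such genes pass the filter through the groups in which they are high. The same holds for ZNF888, which was called lower at 24 h. It was above 0.5 FPKM in 3 libraries of 0 h, 1 of 1 h, 0 of 2 h and 1 of 24 h.

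The files hold no read counts, so the depth behind each value was not computed here and the spread between 3 libraries is the measure of precision. Epithelial genes were expressed, with up to 354 FPKM for EPCAM and 1191 for KRT8. Of 4 markers of other cell types PECAM1 was at 0 in all libraries and PTPRC and COL3A1 did not pass 0.0357 FPKM. COL1A1, a fibroblast gene, was the only one of the 4 above 0.5 FPKM; it reached 8.79 FPKM and rose at 24 h (log2 fold change 1.59), and its part in the results was not tested. The hypoxia genes ANKRD37, NDRG1, CA9 and VEGFA rose at 24 h by 5.45, 5.34, 3.13 and 1.90 on the log2 scale.

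**Figure D1:**
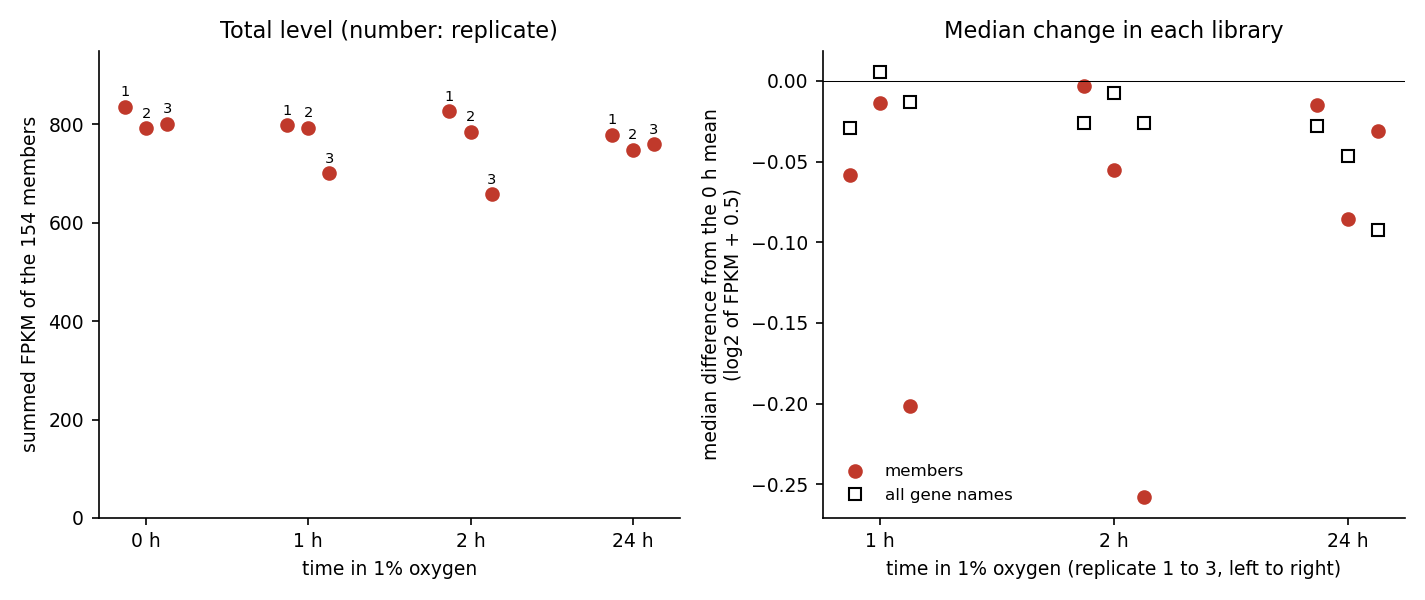
Left, summed FPKM of the 154 members in each library, by time in 1% oxygen, with the replicate number over each point. Right, the median difference of each library from the 0 h mean on the log2(FPKM + 0.5) scale, for the members (filled circles) and for all gene names (open squares). Replicate 3 of 1 h and of 2 h had the lowest sums, 700.6 and 658.6 FPKM, and the lowest medians.

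Summed over the 154 members, expression was 836, 793 and 802 FPKM at 0 h, 798, 794 and 700.6 at 1 h, 827, 786 and 659 at 2 h and 779, 749 and 759.7 at 24 h. Replicate 3 of 1 h and replicate 3 of 2 h stood below the other 10 libraries, as the plot of summed FPKM shows. All 3 libraries of 24 h lay below those of 0 h. In bulk RNA fewer cells of a type and less RNA per cell cannot be told apart, and a sum of FPKM is relative to the rest of the RNA.

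The early time points ask whether these genes respond within the first hours. Tests used limma on log2(FPKM + 0.5) against 0 h, with Benjamini-Hochberg adjustment over all 16678 gene names. A gene was called when it changed more than 2-fold with an adjusted p below 0.01, and a fold change on this scale understates the change of genes with low FPKM. No member was called by limma at 1 h or at 2 h, and 9 members at 1 h and 17 at 2 h had an unadjusted p under 0.05 (5.84% and 11.0%, against 4.61% and 15.3% of all gene names). The background was 0.006% of all gene names called higher and 0% called lower at 1 h, and 0.024% and 0% at 2 h. The 3 members with the smallest adjusted p at 2 h were ZNF160 (log2 fold change 0.84, adjusted p = 0.012), ZNF296 (-0.88, adjusted p = 0.050) and ZNF699 (0.82, adjusted p = 0.057).

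The middle of the list lay slightly below 0 at both times. The median log2 fold change of the members was -0.084 at 1 h and -0.10 at 2 h, while that of all gene names was -0.0071 and -0.018. On the TPM scale, which divides each library by its total over transcripts of any length, the order turned, and the members lay 0.034 and 0.079 above all gene names. At 1 h 68.2% of the members were below 0 and at 2 h 68.8%, against 51.6% and 52.7% of all gene names, 65.5% and 65.6% of the other genes of chromosome 19, and 61.3% and 63.1% of the ZNF-numbered genes elsewhere. At 1 h all 3 libraries lay below all 3 of 0 h for 21 members and above them for 7 (background 7.33% and 6.36% of all gene names). At 2 h they lay below for 31 members and above for 8 (background 13.1% and 12.2%). The median moved with single libraries at each time. It was -0.043 at 1 h without replicate 3 of 1 h and -0.13 without replicate 1 of 1 h, and -0.028 at 2 h without replicate 3 of 2 h and -0.15 without replicate 1 of 2 h. The replicates numbered 3 are the libraries with the lowest summed FPKM of the members, and their part in the shift was not tested beyond this.

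By the same rule 2 members were called higher and 10 lower after 24 h, and 142 were not called. The 2 higher members are 1.30% of the list (background 8.77% of all gene names called higher), and the 10 lower members are 6.49% (background 9.51% called lower). On the TPM scale, which moves the median of all gene names to -0.67, the calls were 0 higher and 26 lower, and the median of the members lay 0.089 above that of all gene names. The calls also moved with the value added before the log, to 3 higher and 16 lower with 0.1 and to 2 higher and 6 lower with 1. The share of all gene names called was not counted on the TPM scale or with these added values. These counts therefore have no background and do not set the members apart. The median log2 fold change was -0.036 for the members, -0.051 for all gene names, -0.18 for the ZNF-numbered genes of other chromosomes and 0.12 for the other genes of chromosome 19. With 1 library left out at a time, the median of the members lay between -0.061 and -0.030.

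The spread of the changes at 24 h was narrow. A log2 fold change within 0.5 of 0 was found for 109 members (70.8%), against 49.5% of all gene names, 53.9% of the other ZNF-numbered genes and 49.8% of the other genes of chromosome 19. Level differs between these sets, so the gene names with a mean FPKM inside the quartiles of the members were counted as well. Of the 3472 gene names in that range 45.4% were within 0.5 of 0, while 13.5% were called higher and 7.32% lower. Of the 76 members in it 67.1% were within 0.5, and 1 was called higher and 7 lower. The list was chosen with results known, so these shares are a description and no test of the list was made.

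**Figure D2:**
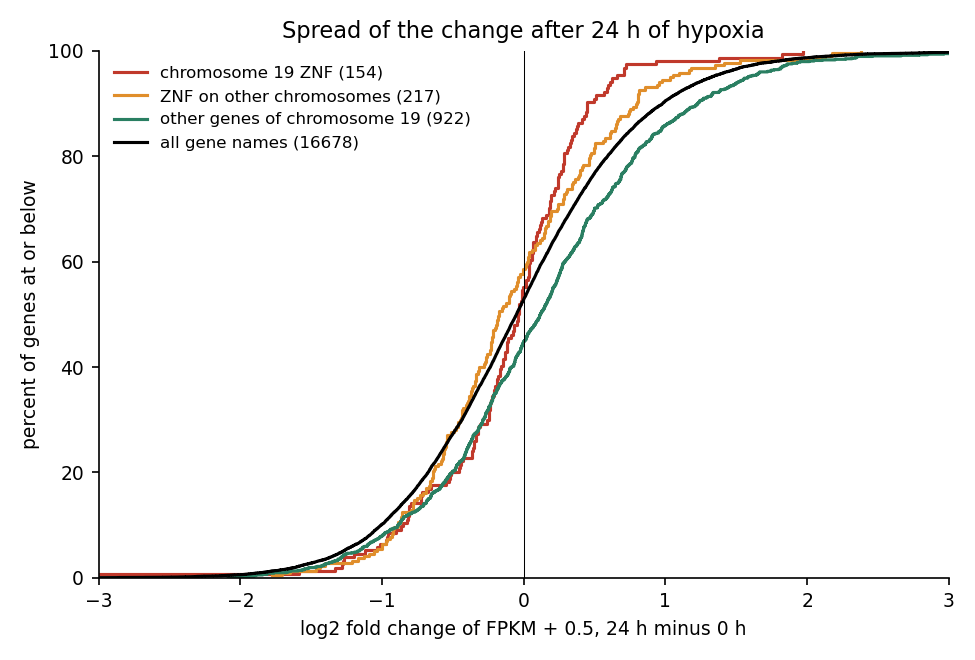
Cumulative percent of genes (vertical axis) by log2 fold change of FPKM + 0.5 at 24 h (horizontal axis, cropped at 3 on each side) for the members and 3 other sets. The curve of the 154 members is the steepest around 0, with 70.8% of the members within 0.5 of it against 49.5% of all gene names.

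Taken library by library, all 3 values of 24 h lay above all 3 of 0 h for 31 members (20.1%, background 27.6%) and below them for 39 (25.3%, background 32.8%), and 84 overlapped. Of the 5 members without a value above 0.5 FPKM at 0 h or at 24 h, 2 are among the 31 and 2 among the 39. For 13 members (8.44%, background 5.13%) the libraries of one later time all lay above those of 0 h and the libraries of another all below. With an adjusted p under 0.05 and no minimum fold, 17 members were higher (11.0%, background 25%) and 31 lower (20.1%, background 30.3%), of which 1 and 2 belong to those 5. Of those short of the fold, ZNF808 reached 0.94 on the log2 scale (1.97 to 4.25 FPKM, adjusted p = 0.00044) and ZNF558 0.71 (6.71 to 11.3 FPKM, adjusted p = 0.00028). On the TPM scale ZNF808 was at 0.16 and ZNF558 turned sign (-0.10). ZNF358 moved from 1.85 ± 1.71 to 6.41 ± 0.886 FPKM (SD, n = 3 libraries), a log2 fold change of 1.82 with an SE of 0.69, and was not called (limma, adjusted p = 0.040). It was called without replicate 1 of 1 h (adjusted p = 0.0029), and ZNF808 without replicate 1 of 0 h (1.04), without replicate 1 of 24 h (1.03) and with a pseudocount of 0.1 (1.06). ZNF224, known as a repressor of the glycolytic gene ALDOA, went from 3.23 ± 0.457 to 5.36 ± 0.553 FPKM and was not called (limma, adjusted p = 0.042, n = 3). These 4 genes were picked after their values had been seen.

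ZNF160 showed the largest rise among the called members. It lies on the minus strand at 53569859 to 53606687 of chromosome 19 (GRCh37, ENSG00000170949) and shared its assembled locus with no other gene name. Its FPKM was 4.35, 4.75 and 4.18 at 0 h, 4.95, 4.98 and 4.52 at 1 h, 8.45, 8.24 and 8.19 at 2 h and 17.4, 18.0 and 21.2 at 24 h. The 2 h libraries all lay above those of 0 h and 1 h, and the 24 h libraries lay above all the others. The mean rose 4.27-fold in 24 h (log2 fold change 1.97, SE 0.11, adjusted p = 1.6e-07). On the TPM scale the change was 1.07 with an adjusted p of 0.020, which is no call. A coding transcript of 4219 bases, matched to ENST00000418871 with 6 annotated exons and 2454 coding bases, was the most abundant, with 2.33 ± 0.514 FPKM at 0 h and 11.5 ± 0.574 at 24 h (SD, n = 3). Among the transcripts of the gene above 0.5 FPKM in at least 3 libraries it held 73.8% at 0 h and 75.1% at 24 h.

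ZNF699 rose from a lower level. It lies on the minus strand at 9401816 to 9420514 of chromosome 19 (ENSG00000196110), also with a locus of its own. The libraries gave 1.15, 1.25 and 1.09 FPKM at 0 h, 1.99, 1.66 and 1.52 at 1 h, 2.57, 1.95 and 2.87 at 2 h and 3.49, 3.83 and 4.15 at 24 h. All libraries of each later time lay above those of 0 h. The mean rose 3.29-fold by 24 h (log2 fold change 1.38, SE 0.16, adjusted p = 1.8e-05), and the change was 0.54 with an adjusted p of 0.11 on the TPM scale. Of its 5 assembled transcripts 2 passed 0.5 FPKM in at least 3 libraries, both coding, with separate start-site groups and the same nearest reference, ENST00000591998. The longer had 0.80 FPKM at 0 h and 2.79 at 24 h, and the shorter 0.0525 and 0.923.

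**Figure D3:**
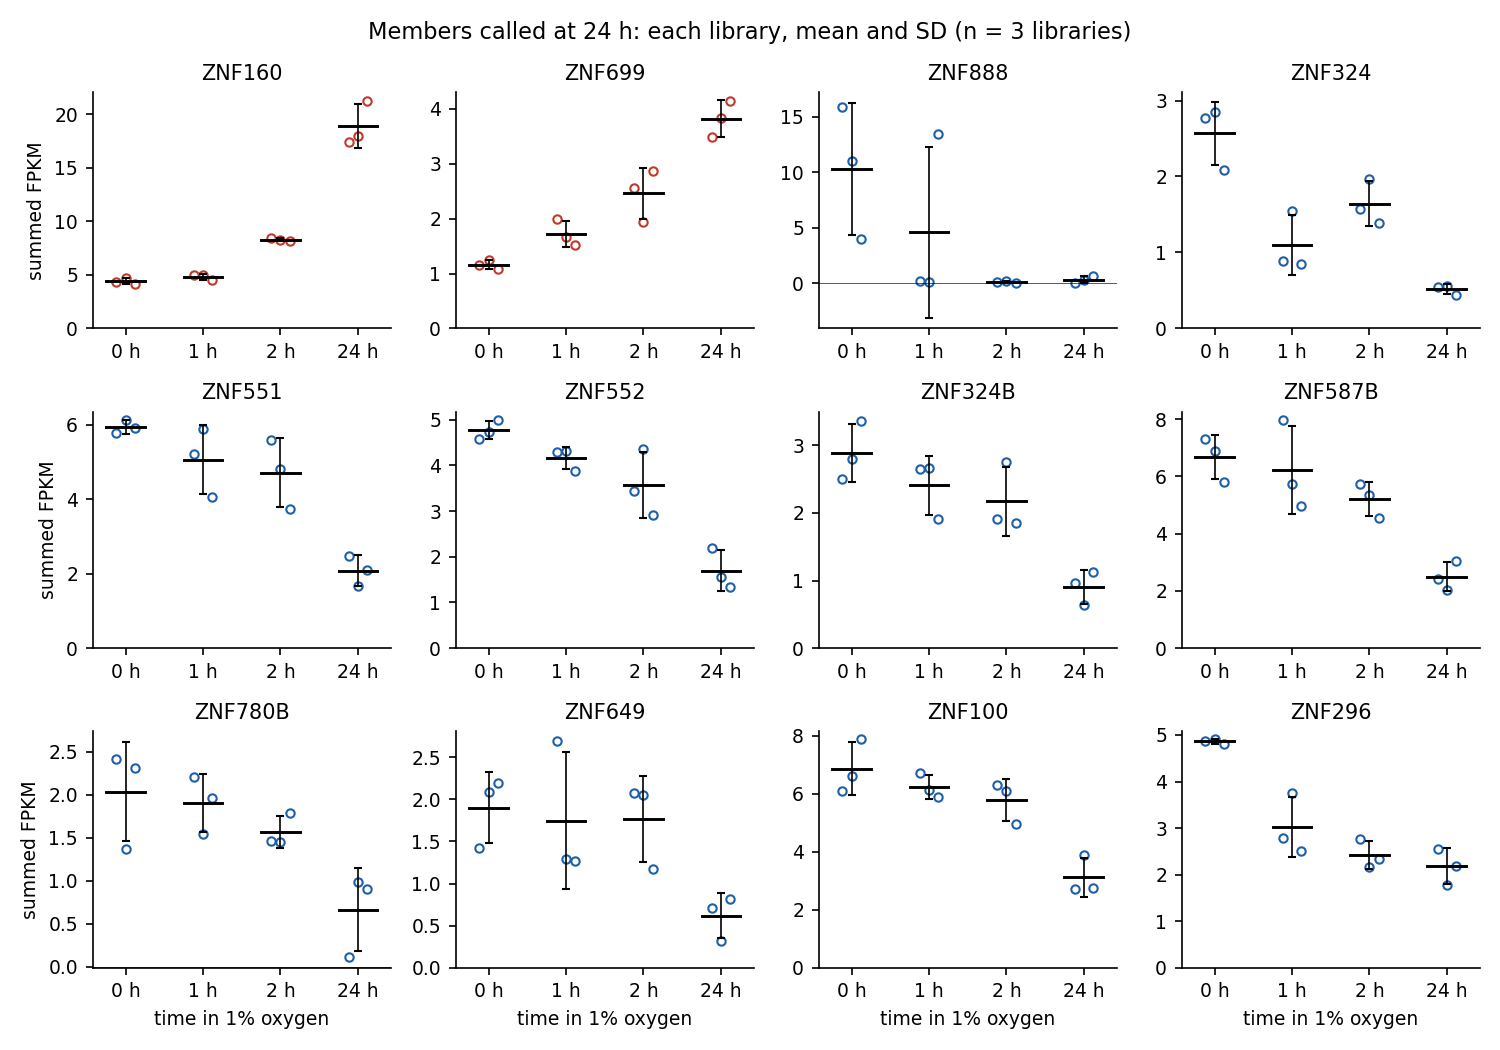
Summed FPKM (vertical axis, one scale per panel) of the 12 called members at 0, 1, 2 and 24 h in 1% oxygen. Open circles are libraries (red, called higher; blue, called lower), horizontal bars the mean and error bars the SD (n = 3 libraries). ZNF160 lies above its 0 h libraries from 2 h and ZNF699 from 1 h, ZNF296 and ZNF324 lie below theirs from 1 h, and ZNF888 is above 10 FPKM in 2 libraries of 0 h and in 1 of 1 h.

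Of the 10 members that fell, 5 lie close together near the end of the long arm, in the order ZNF551, ZNF552, ZNF587B, ZNF324B and ZNF324. The stretch from the start of ZNF551 to the end of ZNF324 (chromosome 19, 58193337 to 58986803, GRCh37) spans 793 kb and holds 15 members. These 5 were called lower and none higher (background 9.51% and 8.77% of all gene names). The other 10 include ZNF274, known to bind the ends of other zinc finger genes, with 4.03 ± 0.503 FPKM at 0 h and 3.69 ± 0.338 at 24 h. They also include ZNF417 (2.84 ± 0.204 and 2.37 ± 0.649) and ZNF587 (4.90 ± 0.529 and 4.80 ± 0.888), both known as repressors of endogenous retroviruses (n = 3 libraries each). Lower at an adjusted p under 0.01 but short of 2-fold were ZNF584, with 10.2 ± 0.892 and 5.96 ± 0.186 FPKM (limma, log2 fold change -0.72, adjusted p = 0.0034, n = 3), and ZNF544 (-0.66). Over the stretch the median log2 fold change was -0.24 and 12 of 15 members were below 0. The median was -0.051 over all gene names and -0.036 over all members, with 52.8% and 55.2% below 0. The stretch was bounded by the called genes themselves and carries no test.

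ZNF324 fell the most of these 5, from 2.77, 2.84 and 2.08 FPKM at 0 h to 0.887, 1.55 and 0.847 at 1 h, 1.57, 1.97 and 1.38 at 2 h and 0.550, 0.563 and 0.440 at 24 h. All libraries of each later time lay below those of 0 h. The mean fell 4.96-fold (log2 fold change -1.58, SE 0.20, adjusted p = 3.6e-05). Its near copy ZNF324B gave 2.51, 2.79 and 3.36 FPKM at 0 h and 0.959, 0.637 and 1.12 at 24 h, without overlap (log2 fold change -1.28, SE 0.20, adjusted p = 0.00017). Reads that fit both copies could move between them in the estimates. The assembled locus of ZNF324B held 3 other gene names and that of ZNF324 held 1.

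ZNF551, on the plus strand (ENSG00000204519), had 5.78, 6.13 and 5.92 FPKM at 0 h and 2.49, 1.66 and 2.09 at 24 h (log2 fold change -1.33, SE 0.18, adjusted p = 5.5e-05). ZNF552, on the minus strand (ENSG00000178935), had 4.58, 4.73 and 4.99 FPKM at 0 h and 2.198, 1.55 and 1.33 at 24 h (log2 fold change -1.28, SE 0.17, adjusted p = 5.5e-05). ZNF587B had 7.32, 6.90 and 5.81 FPKM at 0 h and 2.40, 2.04 and 3.05 at 24 h (log2 fold change -1.27, SE 0.18, adjusted p = 0.00010). None of these 3 overlapped between 0 h and 24 h. At 2 h their means stood at 4.72, 3.57 and 5.21 FPKM, between those of 0 h and 24 h. The 3 genes had the same assembled span, 58193336 to 58428117. Taken by its identifier, the locus of ZNF551 held 7 other gene names, that of ZNF587B also 7 and that of ZNF552 none.

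**Figure D4:**
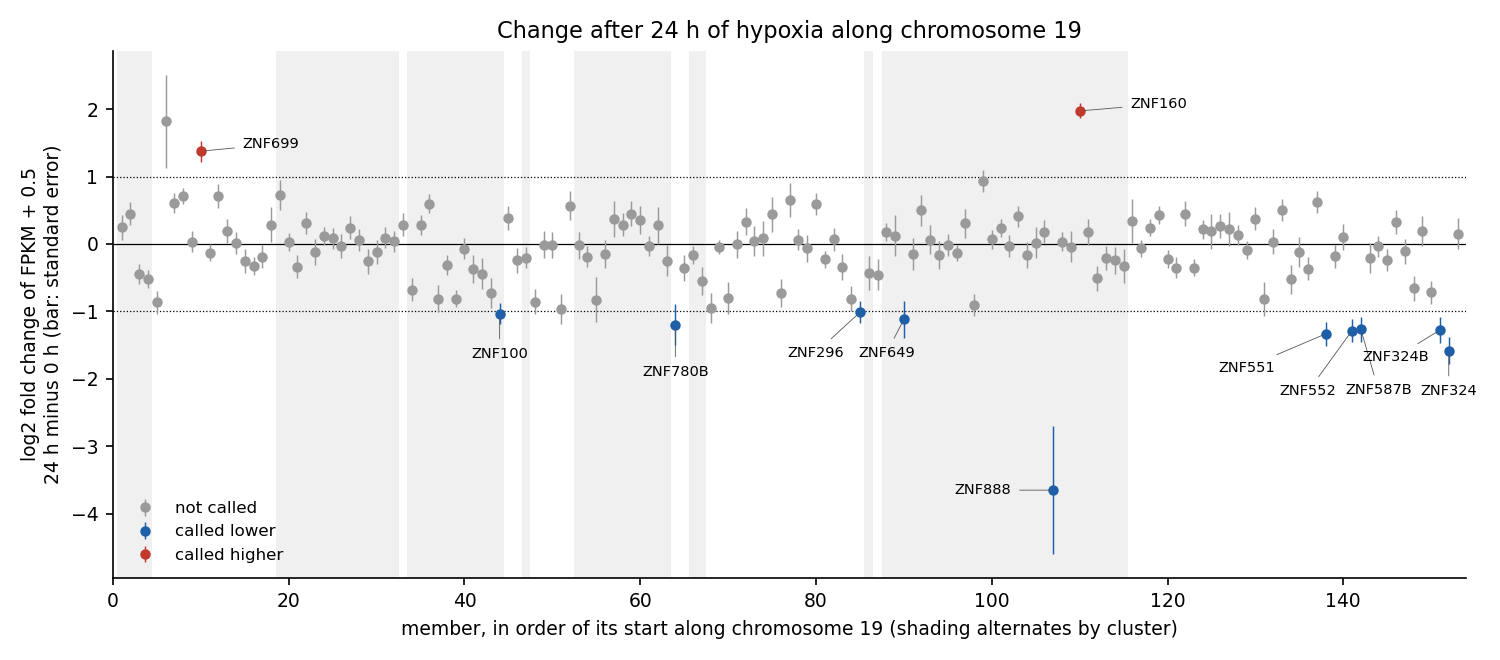
Log2 fold change of FPKM + 0.5 at 24 h (vertical axis; bars, SE) of the 153 members with a place in the annotation, in order of their start along chromosome 19 (horizontal axis). Shading alternates between 16 clusters, separated by gaps over 1 Mb, and dotted lines mark a 2-fold change. Of the 10 members called lower, 5 stand at the right end.

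The other called members are scattered over the chromosome. Sorted by position, the members fall into 16 clusters with gaps over 1 Mb between them, and the largest holds 38 members and all 5 of the genes just described. The cluster before it holds 28 members, with ZNF160 higher and ZNF888 and ZNF649 lower, and its median log2 fold change was 0.0012. A cluster of 14 members around ZNF699 had a median of 0.12. The cluster of 11 members that holds ZNF100 had the lowest median among clusters of more than 2 members, -0.44.

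ZNF296, like ZNF324 and ZNF552, lay below 0 h in all libraries from 1 h on. It had 4.88, 4.92 and 4.81 FPKM at 0 h, 2.79, 3.76 and 2.52 at 1 h, 2.77, 2.17 and 2.34 at 2 h and 2.56, 1.78 and 2.19 at 24 h. The libraries of 2 h and 24 h overlapped. The log2 fold change was -0.62 at 1 h (adjusted p = 0.97), -0.88 at 2 h and -1.01 at 24 h (SE 0.16, adjusted p = 0.00025). The call at 24 h was lost without replicate 2 of 24 h, where the change was -0.90, with median-of-ratios scaling (-0.96) and with a pseudocount of 1 (-0.89).

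ZNF100 had 6.11, 6.61 and 7.87 FPKM at 0 h and 2.71, 3.87 and 2.76 at 24 h (log2 fold change -1.03, SE 0.16, adjusted p = 0.00014). It fell short of the 2-fold limit without replicate 3 of 0 h (-0.94), replicate 1 of 24 h (-0.96) or replicate 3 of 24 h (-0.97). ZNF780B had 2.42, 1.37 and 2.31 FPKM at 0 h and 0.112, 0.981 and 0.900 at 24 h (log2 fold change -1.20, SE 0.30, adjusted p = 0.0052), and the low value in replicate 1 of 24 h stands apart. It was not called without that library (-0.79), without replicate 1 of 0 h (-1.08) or without replicate 3 of 0 h (-1.11). ZNF649 had 1.43, 2.08 and 2.197 FPKM at 0 h and 0.713, 0.315 and 0.821 at 24 h (log2 fold change -1.12, SE 0.28, adjusted p = 0.0049). It was not called without replicate 2 of 0 h (-1.06), replicate 3 of 0 h (-1.03) or replicate 2 of 24 h (-0.91). With a pseudocount of 1 all 3 fell short of the 2-fold limit (-0.94, -0.89 and -0.85 in this order), as did ZNF100 with median-of-ratios scaling (-0.98). ZNF780B and ZNF649 also lost the call without the filter on low values (adjusted p = 0.019 and 0.017), and ZNF780B with a pseudocount of 0.1 (0.0103) and in the 6 libraries of the contrast alone (0.026). For these 3 genes, too, the libraries of 0 h and 24 h did not overlap.

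ZNF888 had the largest log2 fold change, -3.65 (SE 0.95, adjusted p = 0.0058), and the least certain. Its values were 15.9, 11.0 and 3.98 FPKM at 0 h, 0.178, 0.0830 and 13.4 at 1 h, 0.129, 0.145 and 0 at 2 h and 0, 0.258 and 0.620 at 24 h. Replicate 3 of 1 h was as high as the libraries of 0 h, while the others of 1 h were near 0. Nearly all of the signal came from 1 transcript of 141 bases, with 10.1 ± 6.02 FPKM at 0 h (SD, n = 3). Over transcripts of at least 300 bases, on the TPM scale, the log2 fold change was -0.20 (limma, adjusted p = 0.63). The call was also lost without the filter on low values (adjusted p = 0.023), without replicate 1 or 2 of 0 h (-3.25 and -3.51) and without replicate 1, 2 or 3 of 24 h (-3.36, -3.66 and -3.94). Its assembled locus held 5 other gene names. ZNF888 passed the filter for membership only with the libraries of 0 h, the group in which it was high, so its fall is not independent of that filter.

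None of the 6 most abundant members was called at 24 h. ZNF146, a protein made up almost wholly of zinc fingers, carried 12.9% of the summed FPKM of the members on its own. It had 110.5, 96.7 and 99.9 FPKM at 0 h and 72.8, 96.4 and 102 at 24 h (log2 fold change -0.19, adjusted p = 0.31), with overlap between the groups. ZNF121 went from 33.6 ± 1.45 to 28.6 ± 6.25 FPKM and ZNF428 from 19.3 ± 1.06 to 18.8 ± 2.50 (SD, n = 3), with limma adjusted p of 0.26 and 0.74. ZNF787 was at 19.6 ± 2.27 and 15.2 ± 1.08 FPKM (limma, adjusted p = 0.039, n = 3) and missed both limits, with a log2 fold change of -0.35. The direction for ZNF428 was not stable, since median-of-ratios scaling gave 0.017. Together with ZNF544 and ZNF90 these genes carried 27.5% of the summed FPKM.

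ZNF544 and ZNF90 had log2 fold changes of opposite sign, both short of 2-fold. ZNF544 had 32.7, 33.9 and 28.0 FPKM at 0 h and 22.5, 18.6 and 18.5 at 24 h (log2 fold change -0.66, SE 0.18, adjusted p = 0.0091). ZNF90 had 14.6, 16.1 and 15.4 FPKM at 0 h and 25.3, 26.3 and 19.3 at 24 h (log2 fold change 0.60, SE 0.14, adjusted p = 0.0038). Neither pair of groups overlapped. On the TPM scale ZNF90 turned sign (-0.24) and ZNF544 was called lower (-1.46, adjusted p = 0.0041). ZNF146, ZNF121 and ZNF787 were at -1.05, -1.08 and -1.14 on that scale, with limma adjusted p of 0.052, 0.034 and 0.021, and were not called. ZNF317 had the smallest log2 fold change at 24 h among the 10 most abundant members, 0.036 (SE 0.16). Its level was 14.3 ± 0.648 FPKM at 0 h and 14.6 ± 0.875 at 24 h (SD, n = 3). The change was -0.76 on the TPM scale and -0.054 on that scale over transcripts of at least 300 bases.

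The question for isoforms was whether members used other transcripts after hypoxia. Of the transcripts of members, 414 passed 0.5 FPKM in at least 3 libraries, 335 of them of class code = and 79 of class code j, and 99 members had at least 2 such transcripts. All shares that follow are of the summed FPKM of these transcripts alone. Usage was tested with limma on the log2 ratio of each transcript to the other transcripts of its gene, each with 0.5 FPKM added, with a Simes p per gene adjusted over 10680 gene names and a limit of 0.05. At 24 h 14 of the 99 members were called (background 27.6% of gene names), and none at 1 h or 2 h (background 0.0187% and 0.00936%, with 9 and 8 members at a Simes p under 0.05 against 4.89% and 8.28% of gene names). With diffSplice of limma 23 members were called at 24 h (23.2%, background 29.1%), 0 at 1 h (background 0.843%) and 0 at 2 h (background 2.82%). By the ratio test the count at 24 h fell to 5 in the 6 libraries of the contrast alone (background 11.0%). It was 8 without replicate 2 of 24 h (background 17.5%).

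**Figure D5:**
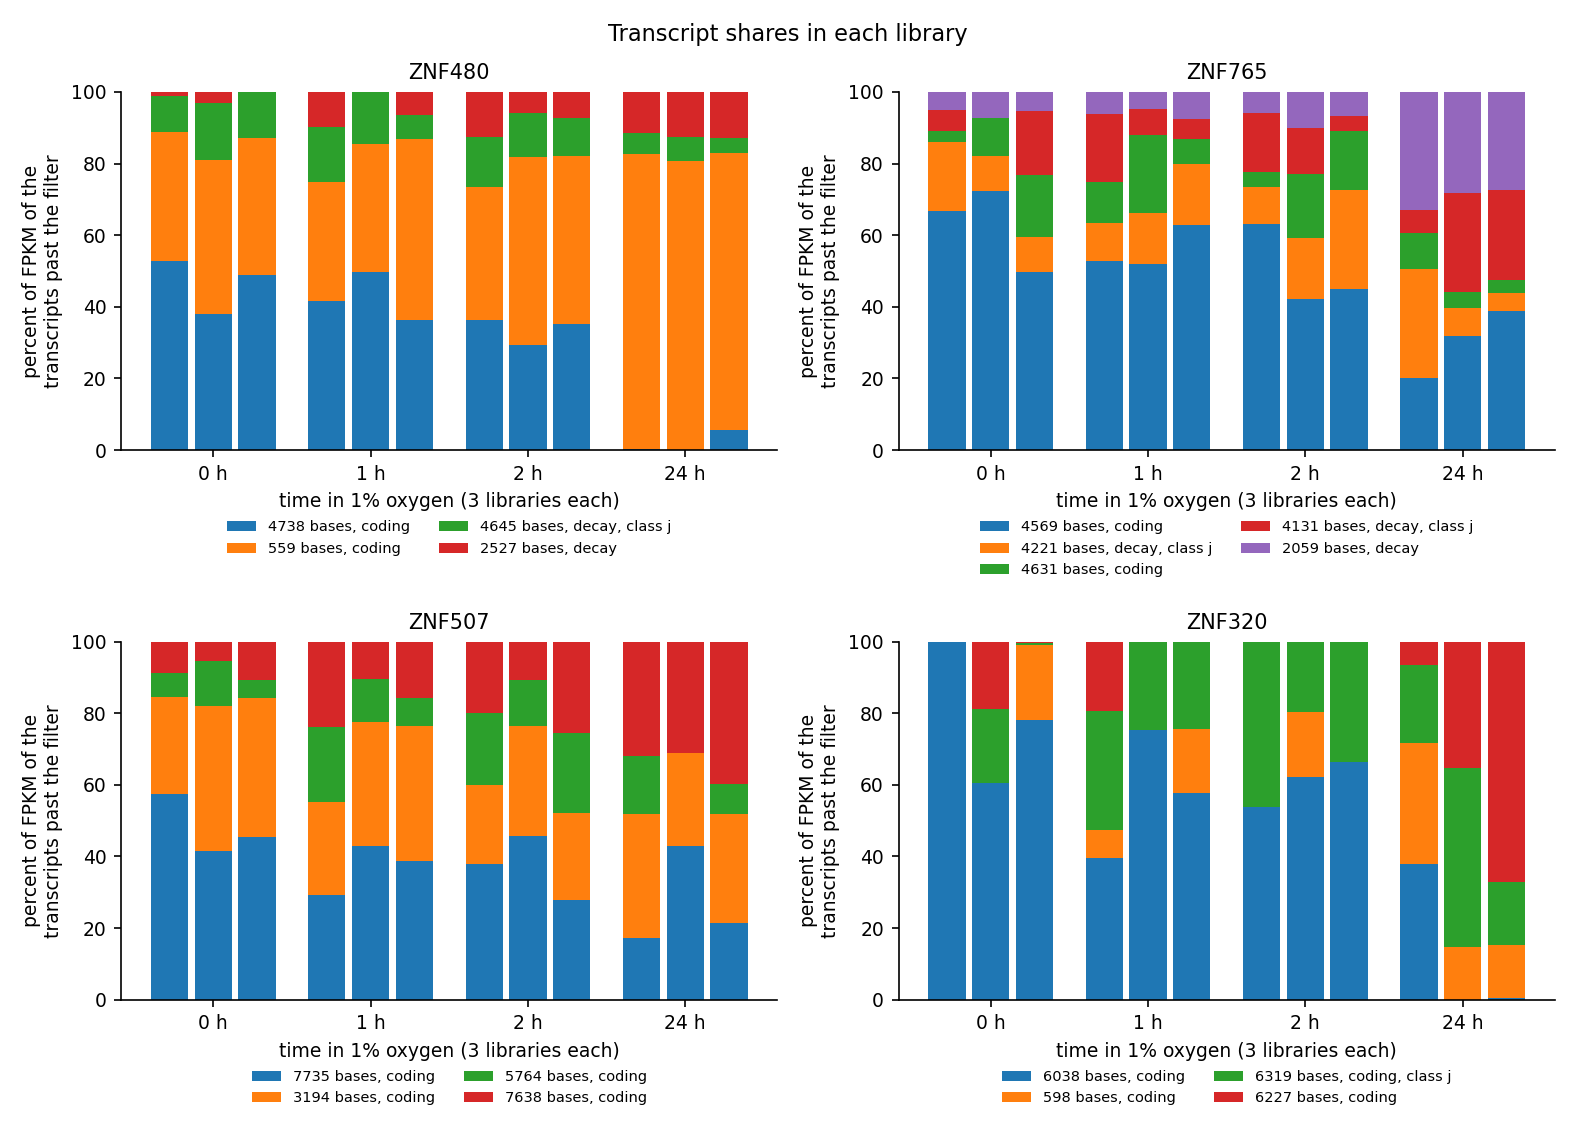
Percent of the FPKM summed over the transcripts of a gene past the filter that each of them held (vertical axis) in each of the 12 libraries (bars, replicates 1 to 3 from left to right within each time) for 4 members with called isoform usage. The legends give transcript length and annotated type, where decay stands for nonsense-mediated decay. In ZNF480 the transcript of 4738 bases holds 38.1% to 52.7% at 0 h and at most 5.60% at 24 h.

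ZNF480, on the plus strand at 52800422 to 52829175 of chromosome 19 (GRCh37, ENSG00000198464), showed the clearest shift (isoform usage, limma, adjusted p = 0.00073). Its coding transcript of 4738 bases, matched to ENST00000595962, held 52.7%, 38.1% and 49.0% at 0 h and 0.197%, 0% and 5.60% at 24 h. A transcript of 559 bases, matched to ENST00000598016 with 495 coding bases annotated against 1605 for the long one, held 36.2%, 42.8% and 38.1% at 0 h and 82.4%, 80.8% and 77.4% at 24 h. The share of a transcript annotated for nonsense-mediated decay (2527 bases, ENST00000468240) was 1.44% at 0 h and 12.3% at 24 h. The level of the gene as a whole was 11.5 ± 0.353 FPKM at 0 h and 14.9 ± 4.98 at 24 h (SD, n = 3) and was not called. As FPKM the long coding transcript went from 5.33 to 0.198 FPKM while the short one, at 4.45 FPKM at 0 h, moved the other way.

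ZNF765 (adjusted p = 0.0042) showed a like pattern with a decay transcript. Its coding transcript of 4569 bases (ENST00000396408) held 66.8%, 72.3% and 49.6% at 0 h and 20.0%, 31.8% and 38.8% at 24 h, and the decay transcript of 2059 bases (ENST00000504235) held 4.94%, 7.23% and 5.32% at 0 h and 33.0%, 28.2% and 27.5% at 24 h. Neither transcript overlapped between the groups. In ZNF83 (adjusted p = 0.016), chosen here after its values were seen, a class j transcript near a decay reference rose from 9.71% to 27.8% and a retained intron transcript of 575 bases from 0.203% to 9.96%. The ZNF83 transcript that was highest in all 3 libraries of 0 h also had a decay reference. No transcript of ZNF83 was highest in all 3 libraries of 24 h. The call for ZNF83 was lost without replicate 2 of 0 h (adjusted p = 0.051), replicate 3 of 0 h (0.054) or replicate 2 of 24 h (0.056).

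In ZNF507, ZNF320 and ZNF526 the shares shifted among transcripts with coding references. ZNF507 (adjusted p = 0.011) had a transcript of 7638 bases at 8.73%, 5.35% and 10.8% at 0 h and 31.9%, 31.2% and 39.8% at 24 h. In ZNF320 (adjusted p = 0.014) the transcript of 6038 bases fell from 100.0%, 60.6% and 78.1% to 38.0%, 0.0189% and 0.458%, and the rest was spread over 3 transcripts with wide scatter. Its call was lost without replicate 1 of 0 h (adjusted p = 0.051) or replicate 2 of 24 h (0.054). ZNF526 (adjusted p = 0.015) has 2 assembled forms with the same reference, and the one of 8795 bases held 24.0%, 24.0% and 23.7% at 0 h and 36.8%, 50.7% and 57.5% at 24 h. Fitted to the 6 libraries of the contrast alone, ZNF526 (adjusted p = 0.068), ZNF264 (0.055), ZNF320 (0.071) and ZNF83 (0.055) were not called for isoform usage, and ZNF566 (0.052) was not without the filter.

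ZNF544 (adjusted p = 0.0015), with 15 transcripts past the filter the most of any member, had a coding transcript of 588 bases that went from 20.4% to 1.798% and one of 555 bases that went from 3.78% to 29.3%. ZNF264 (adjusted p = 0.0039) had a short coding transcript of 774 bases at 40.4% at 0 h and 12.4% at 24 h, and ZNF566 (adjusted p = 0.0067) a long coding one of 5197 bases at 3.18% and 40.6%. The remaining calls were ZNF414, ZNF91, ZNF587B, ZNF227 and ZNF160, of which diffSplice did not call ZNF587B (adjusted p = 0.17), ZNF227 (0.25) or ZNF160. For ZNF160 the share of the transcript behind the call rose from 0.637% to 2.73% while its log2 ratio with 0.5 FPKM added fell by 1.39, so that its direction depends on the added value, and diffSplice did not call it (adjusted p = 0.11). Its call was also lost without any 1 library other than replicate 1 of 24 h (adjusted p up to 0.14).

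For 33 of the 99 members the same transcript was the highest in all 6 libraries of 0 h and 24 h, and for 0 members was one transcript highest in all 3 libraries of 0 h and another in all 3 of 24 h, against 6357 and 265 of 10680 gene names (59.5% and 2.48%). The 33 members are 33.3% of the 99. For the rest the leading transcript differed between libraries of at least 1 time point. Over the members as a whole, and by the type of the nearest reference, coding transcripts held 76.7% to 78.6% of the summed transcript FPKM in the 0 h libraries and 77.4% to 77.7% at 24 h. Decay transcripts held 4.09% to 4.42% and 4.39% to 4.78%, and retained intron transcripts 0.588% to 0.823% and 0.807% to 1.23%. The libraries of 0 h and 24 h overlapped for all 3 types.

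A list of 22 genes, TRIM28 and others of the heterochromatin machinery, was examined alongside. TRIM28 itself had 329, 349 and 324 FPKM at 0 h and 238, 203 and 210.4 at 24 h, a log2 fold change of -0.62 (SE 0.094, adjusted p = 0.00014), short of a 2-fold change. Of the 22 genes 1 was called higher and 1 lower (background 8.77% and 9.51% of all gene names). At an adjusted p under 0.05 without a fold limit 2 were higher (9.09%, background 25%) and 12 lower (54.5%, background 30.3%). The called ones were CHD3, a chromatin remodeller of the NuRD complex, with 11.6 ± 1.09 FPKM at 0 h and 29.6 ± 1.18 at 24 h (limma, log2 fold change 1.32, adjusted p = 5.1e-06), and SUV39H2, a histone methyltransferase, with 25.9 ± 1.91 and 11.0 ± 1.75 (limma, -1.21, adjusted p = 3.6e-05, n = 3). The median log2 fold change of the list was -0.33, against -0.051 for all gene names. No background of gene names at a like level was taken for this list.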

How the data were processed

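RNA was measured in 12 libraries of HCT116 cells (4 time points, 3 libraries each). Per the labels, stranded poly(A) libraries were read as paired ends, and CASAVA 1.8.2 and Cufflinks are the tools named for build hg19. The authors deposited FPKM values per merged transcript, with class code, nearest reference and length. No read counts were used, so a count model does not apply. FPKM of class = and j transcripts was summed per gene name and tested on log2(FPKM + 0.5) with limma 3.58.1 (lmFit, eBayes with trend, two-sided) in R 4.3.3 over all 12 libraries. Isoform usage used log2 ratios of transcripts, with diffSplice as an alternative. The scripts were tested on simulated data.

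Members and lists were chosen with earlier results of these data known. Named genes were the called members, the 6 most abundant, the 8 with the smallest isoform p and the 4 on each side of the threshold. An abundant member with a small change at 24 h was named as well. Places and transcript types came from GENCODE release 44 on GRCh37, by name or identifier (153 of 154 members, 360 of 414 transcripts), and promoters from RefSeq. Figures were made with matplotlib 3.10.9 and promoters aligned with Biopython 1.88. Alternatives covered scaling, pseudocount, filters, class codes, samples, trend, replicate block and leaving out each library. Zinc finger and KRAB patterns in proteins were not analysed here.

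Same-numbered replicates were checked by the correlation of their deviations from the group means. It was 0.259, 0.143 and 0.36 between 0 h and 2 h, all over 0.1. Correlations between different replicate numbers were not computed, so these values cannot settle whether the numbers pair the samples. The values given are from the fit without a block, and the block changed no call at 2 h.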

Additional observations from a re-analysis of the deposited data

Results flagged for a closer look

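ZNF846 lay below all 0 h libraries at 2 h and above them at 24 h. Its log2 fold change was -0.22 at 2 h (0.073, 0.236 and 0.267 FPKM against 0.293, 0.269 and 0.334 at 0 h) and 0.29 at 24 h (0.358, 0.529 and 0.545 FPKM). Every library of one time lay on the opposite side of 0 h from every library of the other, and the difference between the times was not tested. Both comparisons share the 0 h libraries, neither was called by limma (adjusted p = 0.72 and 0.37), and the levels lie at the threshold of membership. The sign at 24 h turned on the TPM scale (-0.045). The same pattern between any pair of later times was found for 13 of the 154 members (8.44%, background 5.13% of all gene names); ZNF846 is given because the text names it.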

How the results depend on the processing

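The counts at 24 h depended on the scaling and the added value. Apart from the adjusted p limit of 0.05, the share of all gene names called at gene level was not counted under the other settings. The member counts under them therefore have no background and do not set the members apart. TPM gave 26 members (0 higher, 26 lower) at 24 h, 1 lower at 1 h and 4 lower at 2 h, with medians of -0.59, -0.50 and -0.80 against -0.67, -0.53 and -0.88 for all genes. It divides by totals of which 57.0% to 87.6% lay in transcripts under 300 bases. On this scale the sign turned at 24 h for ZNF90 (-0.24), ZNF480 (-0.48), ZNF264 (-0.58), ZNF320 (-0.47), ZNF155 (-0.15), ZNF846 (-0.045), ZNF317 (-0.76), ZNF558 (-0.10) and ZNF83 (-0.56). Over transcripts of at least 300 bases TPM gave 2 higher and 13 lower, a median of -0.12 and ZNF317 at -0.054. Median-of-ratios scaling gave 2 and 8, with a median of 0.017 and ZNF428 at 0.017. A pseudocount of 0.1 gave 19 members, 16 of them lower, and a pseudocount of 1 gave 6 lower. An adjusted p under 0.05 without a fold limit gave 48 at 24 h (17 higher, 31 lower) and 1, higher, at 2 h. With class code = only, ZNF264 (-0.26) and ZNF320 (-0.063) turned sign and 1 member changed its leading transcript. The cause of these changes was not tested, apart from the totals given.

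Leaving out 1 library at a time gave 10 to 13 members at 24 h (8 to 10 lower), 0 to 1 at 2 h (0 to 1 lower, the 1 without replicate 3 of 1 h) and 0 at 1 h, and signs turned for ZNF317 (-0.011 to 0.063), ZNF428 (-0.13 to 0.055), ZNF264 (-0.014 to 0.36) and ZNF155 (-0.12 to 0.13). Calls of isoform usage were 23 with diffSplice (background 29.1%), 10 with a pseudocount of 0.1 (20.0%) and 24 with a pseudocount of 1 (36.3%). They were 7 of 53 members with transcripts above 1 FPKM (background 25.9%) and 44 of 222 matching names without a filter (38.7%). In the 6 libraries of the contrast there were 5 (background 11.0%). Leaving out 1 library gave 8 to 14, the lowest without replicate 2 of 24 h (background 17.5%). With the replicate number as a block the counts were 2 higher and 10 lower at 24 h, 0 at 1 h and 0 at 2 h, and 13 members for isoform usage, where ZNF160 was lost (adjusted p = 0.069) and no other call named here changed. Same-numbered deviations correlated at 0.288, 0.0894 and 0.34 between 0 h and 1 h and at 0.00792, 0.0184 and 0.24 between 0 h and 24 h. Without the correlations between different numbers, pairing cannot be settled there either. Depth could not be assessed from FPKM.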

Other observations

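Transcripts of other class codes were left out of the sums. Near ZNF257, which did not pass the filter, a transcript of 826 bases that overlaps an exon of the reference (class code o) had 9.55, 9.53 and 8.47 FPKM at 0 h, 9.49, 9.93 and 8.30 at 1 h, 8.36, 12.1 and 9.81 at 2 h and 2.64, 2.04 and 3.56 at 24 h. All libraries of 24 h lay below those of the other times. A transcript of 361 bases on the opposite strand of ZNF480 (class code x) had 0.190, 0.699 and 0.110 FPKM at 0 h, 0.338, 0 and 0.587 at 1 h and 2.104, 0.214 and 0.814 at 2 h, and was listed at 0 in all 3 libraries of 24 h.

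Among members short of a 2-fold change, several more lay lower at 24 h with an adjusted p under 0.01 by limma, chosen here after their values were seen. ZNF576 went from 8.60 to 4.27 FPKM (log2 fold change -0.95) and ZNF714 from 10.1 to 5.55 (-0.81). ZNF91, known as a repressor of SVA elements, had 1.97 ± 0.288 FPKM at 0 h and 2.72 ± 0.185 at 24 h (SD, n = 3) and was not called (limma, adjusted p = 0.079).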
